A study of Homo sapiens with 12 samples.

Results

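MOLM-14 is a human acute myeloid leukemia line that grows in suspension. The series holds 12 RNA-seq libraries of it from 2 experiments, and the 6 libraries of untargeted cells, 3 from each experiment, are compared here. They were chosen by their labels alone, and 3 values in a row are always replicates 1 to 3. The shControl cells were spun with a lentivirus that carried a control shRNA and were collected 96 h after infection. The DMSO cells, for which the labels name no virus, were collected after 6 h in 0.1% DMSO, the vehicle of the drug RX-5902. All cells were grown in RPMI-1640 with 10% heat-inactivated fetal bovine serum and 1% penicillin-streptomycin, and total RNA was extracted the same way, per the labels. The control sequence, its vector, the number of infected cells and the passage of the cells are not stated in the labels. The other 6 libraries, infected with an shRNA against the RNA helicase DDX5 (shDDX5) or kept for 6 h in 100 nM RX-5902, were used only where stated. The labels call the libraries of a group biological replicates, so p-values measure the spread between these 3 libraries. Virus, time, vehicle and experiment, with any batch that goes with the experiment, differed together between the groups and cannot be told apart.

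MOLM-14 is known to carry a fusion of KMT2A with MLLT3 and an internal tandem duplication in FLT3. A KMT2A fusion recruits elongation factors and the methyltransferase DOT1L to its targets and keeps genes such as HOXA9, MEIS1 and CDK6 on, which blocks maturation. Mutant FLT3 signals without its ligand, in part through STAT5. The cells sit between a myeloid progenitor and a monocyte, and lines of this kind can take on monocyte and macrophage genes when they mature.

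The libraries held 19557470 to 19674098 counts in shControl and 20264250 to 20312111 in DMSO. No pair of replicates differed by so little that it fell within sampling noise. The line's own genes were present in both groups and genes of other blood cells were few. Of 11 markers of red cell precursors, 9 were at 0 counts in all 6 libraries, globins included. Of 14 markers of T and NK cells, 10 were under 1 CPM (counts per 1000000, TMM-scaled) and CD3G, TRBC1, TRBC2 and KLRD1 were at 0. Sums of markers are on the scale of all 12 libraries. The T and NK markers summed to 95.6 to 103 CPM in shControl and 35.9 to 38.4 in DMSO, of which NKG7, GNLY and TRAC made nearly all. Of 7 B cell markers, 6 were under 1 CPM. The exception was FCER2, the low-affinity IgE receptor, which monocytes also carry, at 257, 266 and 257 CPM in shControl and 34.1, 34.5 and 34.4 in DMSO. Epithelial markers summed to 13.6 to 14.4 CPM in shControl and 4.36 to 5.17 in DMSO, with EPCAM and KRT19 at 0. Fibroblast markers summed to 9.07 to 11.3 and 5.07 to 5.47 CPM, with COL3A1, DCN and LUM at 0. Megakaryocyte markers summed to 5.91 to 6.99 and 2.91 to 3.77 CPM, and mast cell and eosinophil markers to 2.03 to 2.48 and 1.15 to 1.31 CPM. The part of such cells in the results was not tested. In bulk RNA, fewer cells of a type and less RNA per cell cannot be told apart. DDX5 itself, the gene targeted elsewhere in the series, had 775, 740.0 and 748 CPM in shControl and 842, 855 and 842 in DMSO, against 162, 162 and 160.3 in shDDX5 on the scale of all 12 libraries.

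The most abundant messages were shared by both sets of controls. Levels between genes are given as TPM, transcripts per 1000000, which divides counts by exon length. Of 11473 protein-coding genes tested, 7058 had at least 10 TPM in both groups and 1064 at least 100 TPM. The 20 genes with the highest lower-of-both-groups mean were led by EEF1A1, the translation elongation factor, at 8636 ± 573 TPM (SD, n = 3) in shControl and 11686 ± 302 in DMSO. Ribosomal protein genes made 11 of these 20. SRGN, the proteoglycan core protein of myeloid granules, had 9439 ± 259.8 TPM in shControl and 5576 ± 321 in DMSO. FTL, the ferritin light chain, had 8649 ± 702 and 4588 ± 100.5 TPM, and TMSB4X, the actin-binding thymosin, 7458 ± 943 and 3084 ± 39.05 TPM. The remaining non-ribosomal members were EEF2, GAPDH, ACTB, ACTG1 and HSP90AB1, all more abundant in DMSO on this scale. The top lists of the 2 groups shared 16 of 20, 40 of 50, 80 of 100 and 415 of 500 genes. Across the protein-coding genes, the Pearson correlation of log2(TPM + 0.1) between the group means was 0.9372, against 0.9963 to 0.9972 between replicates. This is a description across genes, which are not independent.

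**Figure D1:**
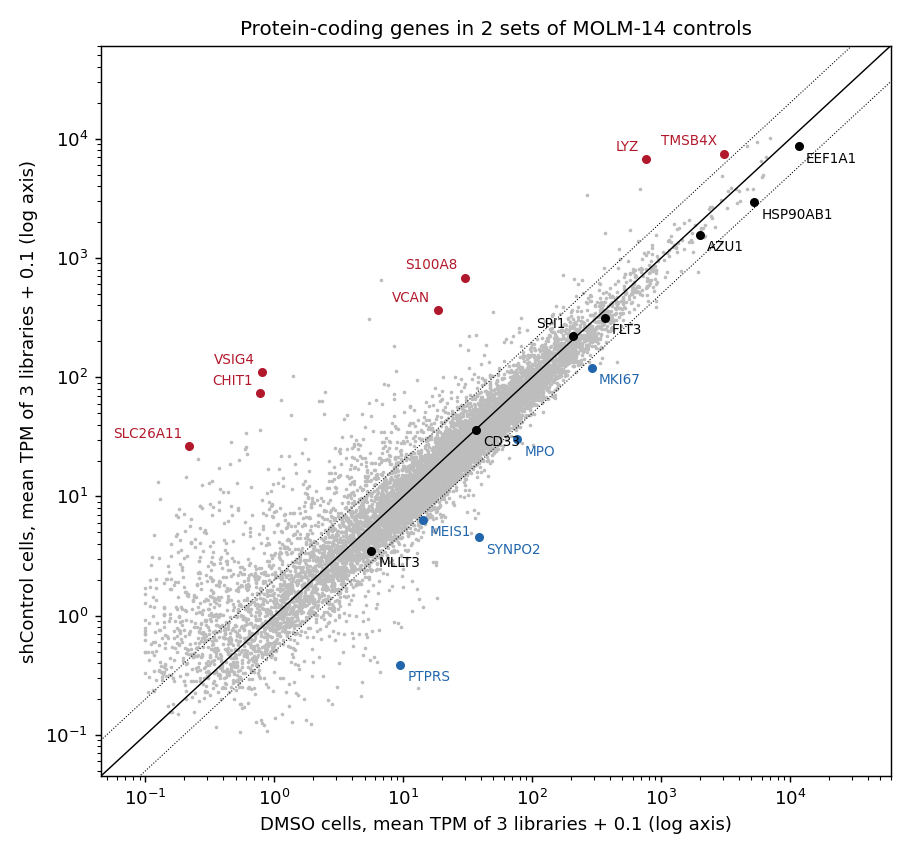
Mean TPM + 0.1 of each tested protein-coding gene in 3 DMSO libraries (x axis, log) and 3 shControl libraries (y axis, log). The solid line marks equal levels and the dotted lines a 2-fold difference. Named genes in red rose and in blue fell by at least 2-fold in the edgeR test, and those in black changed by less. LYZ, at 6752 TPM in shControl and 765 in DMSO, lies well above the upper dotted line.

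Most genes nevertheless differed. Differences were tested for 14283 genes with edgeR's quasi-likelihood test, and a gene is said to have risen (higher in shControl) or fallen (lower in shControl) at a Benjamini-Hochberg adjusted p under 0.05. By this rule 10144 genes (71.0%) differed, 5115 (35.8%) risen and 5029 (35.2%) fallen. A change of at least 2-fold was found for 1746 risen genes (12.2%) and 586 fallen genes (4.1%). Groups that did not overlap were the rule, at 10364 genes (72.6%), so a count of called members is read against these shares. Of genes above 50 CPM, 2.63% rose and 0.728% fell by at least 2-fold, and of those between 5 and 50 CPM 9.13% and 3.37%. The low-count filter was met in only 1 group by 1143 genes, through shControl, and by 422 genes, through DMSO. Such a gene is in the table because that group is higher, so a count or median that includes it is a description and supports nothing; the number is given beside each list's calls where it is above 1. For 7086 genes (49.6%) the whole 95% interval of the fold change lay within 1.5-fold.

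Several genes that define the leukemia lay close together in both sets of controls, and others did not. Among 140 tested genes of 7 identity lists, 54 had a whole 95% interval within 1.5-fold, a smaller share than the 49.6% of all genes tested. FLT3, the mutated receptor, had 388, 389 and 400.2 CPM in shControl and 419, 438 and 424 in DMSO. All 3 shControl libraries lay below all 3 DMSO libraries, but the fold change was small, at -0.12 on the log2 scale (95% interval -0.20 to -0.04, adjusted p = 0.0077, edgeR). MCL1, the short-lived survival protein, had 419.5, 393 and 383 CPM in shControl and 401, 384 and 391 in DMSO, with overlapping groups and a 95% interval of -0.06 to 0.11. CD33, the myeloid antigen bound by gemtuzumab ozogamicin, had 63.8, 67.2 and 64.6 against 64.2, 61.1 and 59.8 CPM, again overlapping, with an interval of -0.02 to 0.18. CEBPA, a factor of granulocyte and monocyte fate, had 243, 276 and 258 against 259, 230.1 and 236 CPM (interval 0.00 to 0.20, adjusted p = 0.059). BCL2, the target of venetoclax, had 125, 124 and 125 CPM in shControl and 133, 137 and 136 in DMSO, and fell by 0.12 on the log2 scale (interval -0.20 to -0.03). The directions of BCL2, CEBPA and SPI1 turned under a correction for exon length and GC content. With it CEBPA (-0.1748, adjusted p = 5.59e-05, edgeR) and SPI1 (-0.1055, 0.00541) passed the test as lower in shControl, and BCL2 did not pass. Among other identity genes above 50 CPM with narrow intervals, GAB2 (-0.01), FLI1 (-0.04), TFRC (-0.03), CD47 (-0.04), BID (-0.02) and RNASE2 (0.01) did not pass the test, with the log2 fold change in parentheses. After the length and GC correction 4 of these passed it, RNASE2 lower in shControl (-0.32, adjusted p = 2.51e-09, edgeR) and TFRC (0.18, 9.6e-06), CD47 (0.09, 0.025) and FLI1 (0.09, 0.0326) higher. MYC fell, from 637, 602 and 577 CPM in DMSO to 413, 455 and 445 in shControl (-0.47 ± 0.044, SE, adjusted p = 7.8e-11).

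Every tested KMT2A fusion target was lower in shControl cells. All 20 tested members of the list fell, 7 of them by at least 2-fold, with a median log2 fold change of -0.69 against -0.0046 over all genes. The filter was met only in DMSO by 4 of them. MEIS1, the homeobox partner of HOXA9, had 20.2, 22.5 and 19.03 CPM in shControl and 45.1, 41.3 and 42.8 in DMSO. The groups were far apart, with a log2 fold change of -1.06 ± 0.064 (adjusted p = 1.6e-15). CDK6, the cell cycle kinase, had 237, 217 and 215 against 401, 398 and 424 CPM (-0.87 ± 0.044). PBX3, another cofactor of the HOX proteins, had 53.3, 54.9 and 55.97 against 92.01, 98.7 and 96.1 CPM (-0.80 ± 0.047). CDK6 and PBX3 did not overlap between the groups. SKIDA1, a common member of KMT2A signatures, had 8.12, 7.06 and 7.84 against 18.6, 17.6 and 19.97 CPM (-1.29 ± 0.087). The abundant members LAMP5 (-0.12), JMJD1C (-0.22) and DOT1L (-0.61) fell by less on the log2 scale. KMT2A had 49.8, 44.7 and 47.9 CPM in shControl and 69.1, 68.9 and 65.3 in DMSO (-0.51 ± 0.051), and its fusion partner MLLT3 had 7.66, 7.77 and 9.41 against 12.4, 12.6 and 12.9 CPM (-0.61 ± 0.093). Counts per gene do not separate fusion reads from normal ones.

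Within the HOXA cluster the large differences were those of HOXA3 to HOXA7. The cluster lies on chromosome 7, with HOXA3 at chr7:27106184-27152583 and HOXA13 at chr7:27193503-27200091 (GRCh38). On the scale of all 12 libraries, HOXA9 had 30.9, 31.2 and 33.6 CPM in shControl and 41.4, 43.2 and 46.5 in DMSO. HOXA10 had 20.8, 18.4 and 20.95 CPM in shControl and 30.4, 28.8 and 33.2 in DMSO. These genes differed by less than 2-fold. HOXA5, in the middle of the cluster and chosen after its values were seen, had 0.458, 0.406 and 0.354 CPM in shControl and 4.26, 4.31 and 3.57 in DMSO. HOXA7, chosen likewise, had 0.611, 1.06 and 0.810 CPM in shControl and 3.86, 4.11 and 4.51 in DMSO. The shControl values of both lay far below every DMSO value. HOXA3 and HOXA6, chosen likewise, also fell, with log2 fold changes of -3.02 and -4.15, on 16 and 7 shControl reads in all against 136 and 134 DMSO reads. HOXA4, chosen likewise, fell from 47 reads to 3, a 15.3-fold lower level with a counting interval of 4.92 to 76.7. The other 6 libraries gave the same order for HOXA5, with 0.231, 0.112 and 0.0519 CPM in shDDX5 and 5.67, 5.72 and 5.55 in RX-5902. Part of HOXA9, 13.9% of its exon length, overlaps an antisense gene on the other strand, and the strand setting of the counting was not given in the sources used here.

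**Figure D2:**
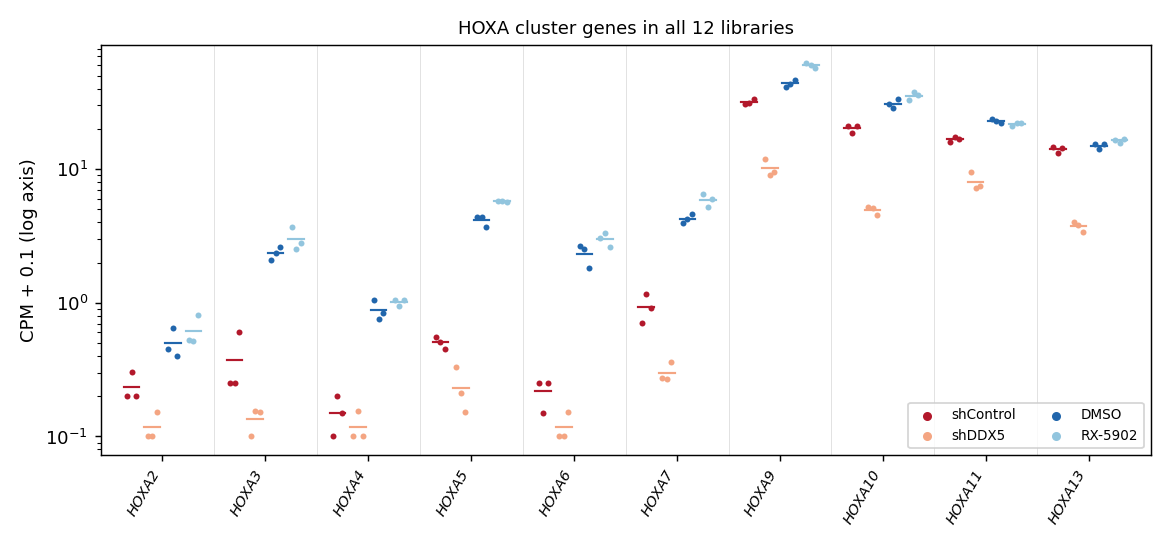
CPM + 0.1 (log axis) of 10 HOXA genes in 12 libraries, in order along chromosome 7. Points are libraries, lines are group means, and colors are the 4 groups. HOXA3 to HOXA7 sit lower in both infected groups than in both drug-experiment groups, and HOXA9 to HOXA13 lie closer together between shControl and DMSO.

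Output genes of FLT3 and STAT5 moved in both directions. Of 18 tested, 12 rose and 5 fell, with a median of 0.42 on the log2 scale that came to 0.26 after the length and GC correction. STAT5A had 39.1, 38.8 and 37.4 CPM in shControl and 12.2, 12.2 and 11.99 in DMSO (1.66 ± 0.066). PIM1, a STAT5-induced kinase, had 138, 146 and 136 against 70.6, 71.9 and 71.96 CPM (0.97 ± 0.044). CCND2, a D-type cyclin, had 73.01, 69.4 and 70.4 against 34.4, 36.1 and 34.3 CPM (1.02 ± 0.051). BCL6, a repressor that STAT5 is known to hold down in several blood cells, rose from 5.18, 4.58 and 4.41 to 26.9, 27.6 and 28.6 CPM. The 4 genes lay higher in every shControl library than in any DMSO library. ID1, an inhibitor of helix-loop-helix factors, fell from 10.7, 11.8 and 12.3 to 1.79, 1.47 and 2.12 CPM (-2.69 ± 0.13).

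Of 22 tested blood transcription factors, 12 rose and 5 fell, 2 of them at least 2-fold. IRF5, a factor of inflammatory macrophages, had 36.6, 37.6 and 40.7 CPM in shControl and 10.6, 10.4 and 9.35 in DMSO. CEBPB, a factor of monocyte maturation, had 33.9, 36.2 and 34.01 against 9.67, 11.1 and 9.20 CPM. Both groups were far apart for these genes, with log2 fold changes of 1.92 and 1.80. The progenitor factors MYB (-0.64 ± 0.041) and IKZF1 (-0.98 ± 0.040) fell, while IRF8 (0.37 ± 0.039) and NFE2 (0.83 ± 0.058) rose. SPI1, the master factor of myeloid cells, had 129, 140.2 and 136 CPM in shControl and 121, 123 and 110.2 in DMSO (0.20 ± 0.046). The progenitor and erythroid factor GATA1 was at 0 counts in all 6 libraries.

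Granule proteins, which are made at the promyelocyte stage, did not move as a block. Of 13 tested, 8 rose and 3 fell, and their median of 0.40 turned to -0.04 after the length and GC correction. AZU1, or azurocidin, was among the most abundant at 1570 ± 111 TPM in shControl and 1998 ± 85.7 in DMSO. MPO, the myeloperoxidase, had 38.98, 40.9 and 40.3 CPM in shControl and 99.2, 95 and 91.6 in DMSO (-1.25 ± 0.049, adjusted p = 3.5e-20). PRTN3, proteinase 3, had 403, 448 and 426 against 758, 806 and 742 CPM (-0.85 ± 0.045). ELANE, the neighboring elastase gene, went the other way, with 393, 455 and 466 against 344, 332 and 322 CPM (0.40 ± 0.049), a direction that turned under the length and GC correction. MMP9, a gelatinase of late granules, had 11.9, 13.5 and 13.5 against 0.897, 0.847 and 0.881 CPM. MS4A3 (2.29) and CST7 (2.16) also rose at least 2-fold. BPI, LTF, LCN2 and CAMP, of the same list, were under 1 CPM, and CEACAM8 had no counts in any of the 6 libraries.

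Among 23 tested surface antigens, 16 rose and 4 fell, and 2 met the filter only in shControl. CD44, the hyaluronan receptor, had 188, 186 and 189.9 CPM in shControl and 77.4, 72.5 and 69.6 in DMSO (1.36 ± 0.045). CSF2RB, the shared beta chain of the GM-CSF, IL-3 and IL-5 receptors, had 33.2, 35.4 and 34.97 against 7.68, 7.92 and 7.29 CPM. CD4 had 70.6, 77.1 and 75.7 against 34.04, 35.2 and 32.8 CPM. NCAM1, or CD56, an antigen seen on some myeloid leukemias, went the other way, with 54.5, 55.05 and 59.7 CPM in shControl and 168, 157 and 158 in DMSO (-1.51 ± 0.047). HAVCR2, or TIM-3, rose from 1.40, 1.35 and 1.47 to 10.2, 8.02 and 9.11 CPM. IL3RA, CSF2RA and CD99 were listed at 0 in all 6 libraries; these genes have near-identical copies in the annotation, so the counts say nothing of their expression. KIT, CD96 and CD7 were at 0 counts as well, and CD34 was under 1 CPM.

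Of 15 tested members of the BCL2 family, 10 rose and 1, BCL2, fell. BCL2L11, or BIM, a trigger of cell death, had 142, 135 and 131 CPM in shControl and 47.8, 47 and 50.2 in DMSO (1.49 ± 0.047). The groups did not overlap. BMF, another trigger, had 41.2, 42.6 and 45.1 against 10.9, 10.9 and 11.1 CPM. BCL2A1, a survival member, had 19.3, 15.6 and 16.9 against 4.68, 4.39 and 4.16 CPM. The pore formers BAK1 (0.83 ± 0.048) and BAX (0.50 ± 0.047) rose by less. An antisense gene overlaps 10.9% of BCL2L11.

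Monocyte and macrophage genes had the highest median change of the 7 identity lists. Of 33 listed genes, 29 were tested, 28 rose and 1 fell, and 20 rose by at least 2-fold. The filter was met only in shControl by 6 of the 29, CLEC7A and CD14 among them. Of the listed genes, MRC1 was at 0 counts in all 6 libraries, and CD68, TLR2 and TLR8 were under 1 CPM. The median was 2.33 on the log2 scale, and 2.13 after the length and GC correction. CLEC7A, the beta-glucan receptor, chosen after its values were seen, had 88 reads in shControl and 0 in DMSO, at least 30.1-fold higher against a floor of 3 counts over the group, and the median is the same with it at that bound. Summed over the list on the scale of all 12 libraries, the shControl libraries held 7391 to 7632 CPM and the DMSO libraries 1419 to 1466 CPM. LYZ and VCAN, whose values follow, made most of the shControl sum. LYZ, the lysozyme gene, had 3674, 3555 and 3286 CPM in shControl and 382, 370.5 and 358 in DMSO, a 9.46-fold rise (log2 3.24 ± 0.051, adjusted p = 1.1e-30). It ranked 7 by TPM among protein-coding genes in shControl and 110 in DMSO. VCAN, the matrix proteoglycan of classical monocytes, had 1616, 1601 and 1608 against 77.4, 76.3 and 73.5 CPM, a 21.2-fold rise. S100A8, a calcium-binding alarmin, had 185, 177 and 189 against 7.72, 7.78 and 7.10 CPM, a 24.4-fold rise. Every shControl library lay above every DMSO library for these genes.

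The genes of the phagocyte oxidase showed how uneven the rise was within 1 complex. CYBB, its membrane catalytic subunit, had 71.7, 67.7 and 68.7 CPM in shControl and 4.84, 4.58 and 4.94 in DMSO (3.85 ± 0.073). NCF1 (1.27), which shares reads with near-identical pseudogenes, rose by less, and NCF4 (0.46) and CYBA (0.29), the partner chain of CYBB, by less than 2-fold. Integrins and receptors moved the same way. ITGAX, or CD11c, had 74.8, 83.7 and 83.04 against 10.5, 9.52 and 9.50 CPM. ITGAM, or CD11b, had 43.2, 42.1 and 44.3 against 6.48, 6.23 and 6.07 CPM. Both integrins lay several fold higher in every shControl library. CSF1R, the M-CSF receptor, had 62.4, 69.6 and 70.4 against 23.6, 22.3 and 22.5 CPM. TLR4, the endotoxin receptor, had 12.7, 11.8 and 10.98 against 1.30, 1.44 and 1.37 CPM. CD36, CD86, TYROBP and S100A9 rose with log2 fold changes of 2.33, 1.71, 2.03 and 2.58. FCGR1A, the high-affinity IgG receptor, which has near-identical copies, stood at 67.8, 69.98 and 71.96 CPM in shControl and 55.5, 54.5 and 50.8 in DMSO, a rise of 0.38 ± 0.050. The member that fell, named after its value was seen, was FCER1G, the signaling chain of Fc receptors, at 1.69, 2.28 and 2.12 against 5.63, 5.03 and 4.89 CPM. CD14, the endotoxin co-receptor, was chosen likewise and had 420 reads in the 3 shControl libraries and 3 in the 3 DMSO libraries, a ratio of 144 with a counting interval of 48.8 to 699.

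Genes of tissue macrophages were also prominent among the largest rises of the whole table. The macrophage genes MRC1 and CD68, given above, were not among these rises. The 12 largest rises were taken from protein-coding genes whose mean reached 5 CPM, and among them VSIG4, a complement receptor of resident macrophages, had 72.5, 80.4 and 79.6 CPM in shControl and 0.498, 0.399 and 0.490 in DMSO. CHIT1, the chitinase of activated macrophages, had 169, 174 and 169.8 against 1.44, 1.54 and 1.37 CPM, a 117-fold rise (log2 6.87 ± 0.078). Both were under 2 CPM in every DMSO library. SIGLEC1, or CD169, a lectin that binds sialic acid, had 15.2, 16.9 and 16.8 against 0.0997, 0.249 and 0.196 CPM. ACP5, the tartrate-resistant acid phosphatase of osteoclasts and macrophages, had 14.7, 17.5 and 16.1 against 0.199, 0.349 and 0.0979 CPM. Further genes of this kind were picked after their values were seen and count as description. CLEC5A, a lectin receptor of myeloid cells, had 381, 382 and 387 CPM in shControl and 5.33, 7.08 and 6.17 in DMSO. OLR1, a receptor for oxidized LDL, had 60.03, 57.2 and 59.8 against 0.847, 0.947 and 0.832 CPM. CD209, or DC-SIGN, had 63.7, 65.8 and 61.1 against 1.35, 1.495 and 1.81 CPM. Each was far above its DMSO range in every shControl library. APOE, a lipid carrier of macrophages, had 10.5, 12.3 and 10.8 against 0.199, 0.0997 and 0.196 CPM.

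**Figure D3:**
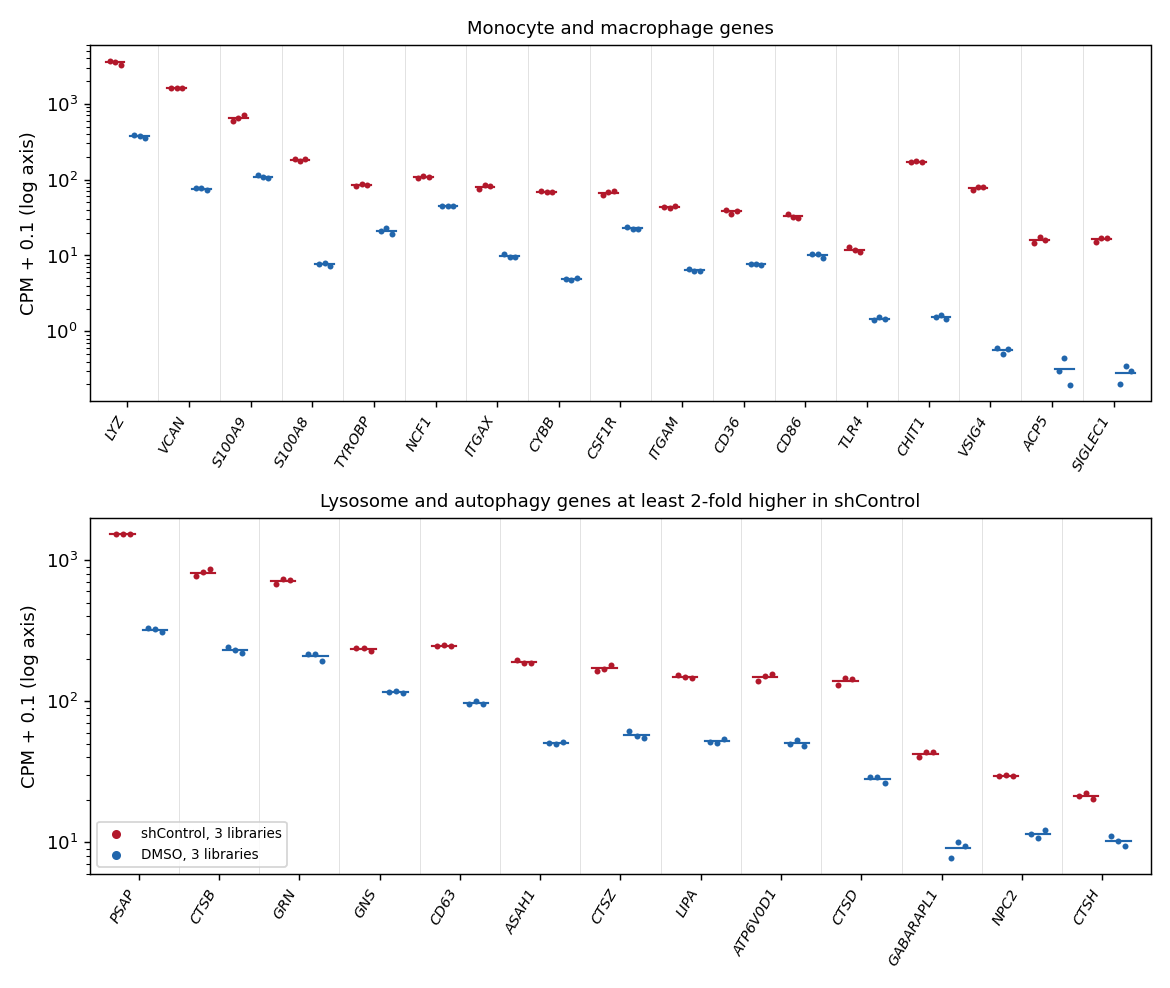
CPM + 0.1 (log axis) of monocyte and macrophage genes (top) and of lysosome and autophagy genes (bottom) in 3 shControl libraries (red) and 3 DMSO libraries (blue). Points are libraries and lines are group means. The genes drawn were picked from those at least 2-fold higher in shControl. That all 3 shControl libraries lie above all 3 DMSO libraries for each describes the picked genes and not the whole lists.

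Lysosome genes rose with few exceptions. Of 29 tested, 26 rose, 13 of them at least 2-fold, none fell, and the median was 0.80 (0.83 after the length and GC correction). PSAP, the precursor of the saposins that help digest sphingolipids, had 1531, 1535 and 1528 CPM in shControl and 329, 323 and 308 in DMSO, a 4.78-fold rise (2.26 ± 0.044). CTSB, a cysteine cathepsin, had 768, 817 and 858 against 242, 231 and 221 CPM. GRN, progranulin, had 677, 729 and 726 against 216, 218 and 192 CPM. CTSD, the aspartic cathepsin, had 129, 146 and 143 against 28.8, 28.8 and 26.4 CPM, with 23.4% of its exon length shared with an antisense gene. The groups stayed apart in all of these. LIPA, the acid lipase, had 153, 148 and 146 against 51.4, 50.3 and 53.4 CPM. NPC2, a cholesterol carrier, had 29.6, 29.9 and 29.2 against 11.4, 10.6 and 12.1 CPM. GABARAPL1, of the autophagy machinery, rose by 2.24 ± 0.076. Among the 3 members that did not pass the test were NPC1 (0.12) and ATP6V1H (0.05), named after their values were seen.

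TFEB and related factors are known to bind the letters CACGTG near the start of lysosome genes. This motif, searched on both strands, was present in the 300 bases around the start (250 before, 50 after) of 7 of 21 lysosome genes with a promoter in RefSeq (33.3%) and of 7.43% of all 27305 promoters of that table. The share was also above that of all promoters in lists that mostly fell, at 36.4% (12 of 33) for ribosome assembly factors and 29.4% (5 of 17) for KMT2A targets. Stretches that hold it are printed for a protease, a membrane protein and a proton pump subunit, with the motif in capitals, 5′ to 3′ on the strand of the gene (RefSeq, GRCh38.p14). ATP6V0D1 rose by 1.56 ± 0.050 and LAMP1, named here for its sequence, by 0.78. A match is a description of the letters and not evidence of binding.
CTSD, chr11:1763940-1763999, minus strand: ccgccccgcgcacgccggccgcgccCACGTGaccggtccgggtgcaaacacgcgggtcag
LAMP1, chr13:113297179-113297238, plus strand: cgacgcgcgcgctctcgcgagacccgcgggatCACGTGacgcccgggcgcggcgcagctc
ATP6V0D1, chr16:67481182-67481241, minus strand: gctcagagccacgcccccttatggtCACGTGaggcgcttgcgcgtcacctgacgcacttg

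Genes switched on by interferon rose in shControl cells, though not all of them and not uniformly. Of 36 tested, 28 rose, 21 of them at least 2-fold, 3 fell and 5 did not pass the test. The filter was met only in shControl by 8 of them. The median log2 fold change was 1.08. IFI6, an inhibitor of apoptosis and of virus replication, had 19.8, 21.9 and 21.05 CPM in shControl and 0.847, 0.449 and 0.587 in DMSO (5.05 ± 0.15, adjusted p = 8.1e-24). OAS2, which makes the activator of RNase L, had 52.6, 52.2 and 53.7 against 8.52, 7.58 and 9.01 CPM (2.66 ± 0.069). IFIT3 had 17.98, 18.3 and 21.7 against 1.84, 2.64 and 2.20 CPM. IFIT2, another binder of viral RNA, had 23.9, 22.6 and 20.5 against 4.24, 5.18 and 5.34 CPM. The groups did not overlap for any of these 4 genes, and none reached 100 CPM in shControl. ISG15, a ubiquitin-like modifier, had 12.2, 13 and 13.5 against 6.03, 6.43 and 4.99 CPM. DDX60, a helicase of the same list, went the other way, with 5.42, 5.33 and 5.16 CPM in shControl and 11.7, 12.8 and 14.7 in DMSO (-1.30 ± 0.10). RSAD2, or viperin, chosen after its values were seen, was near the detection limit at 0.511, 0.508 and 0.506 against 0.399, 0.349 and 0.196 CPM and did not pass the test (adjusted p = 0.12).

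The interferon-stimulated response element (GAAA, any 2 bases, then GAAA, on either strand) was present in the promoter window of 20 of 32 interferon genes with a RefSeq promoter (62.5%) and of 3.65% of all promoters. The share was also above that of all promoters in lists with smaller medians. It was 58.3% (7 of 12) for HLA class I genes (median -0.06) and 35.3% (6 of 17) for sensors and restriction factors (0.19). A match is a description of the letters, as above. Stretches are printed for 4 of the genes described above, of which IFI6, ISG15 and IFIT3 rose and DDX60 fell, with the motif or its reverse complement in capitals, 5′ to 3′ on the strand of the gene.
IFI6, chr1:27672314-27672373, minus strand: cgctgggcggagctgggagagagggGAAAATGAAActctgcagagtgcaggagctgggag
ISG15, chr1:1013365-1013424, plus strand: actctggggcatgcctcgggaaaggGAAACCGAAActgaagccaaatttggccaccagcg
IFIT3, chr10:89327850-89327909, plus strand: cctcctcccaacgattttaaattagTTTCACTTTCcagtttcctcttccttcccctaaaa
DDX60, chr4:168318771-168318830, minus strand: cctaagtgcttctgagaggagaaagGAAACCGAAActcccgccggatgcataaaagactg

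Of 22 tested sensors of viral nucleic acid and retroviral restriction factors, 12 rose and 5 fell, with a median of 0.19, and 2 met the filter only in shControl. SAMHD1, a dNTP hydrolase that restricts lentiviruses in myeloid cells, had 28.97, 27.3 and 26.8 CPM in shControl and 0.449, 0.847 and 0.685 in DMSO (5.38 ± 0.13). IFI16, a DNA sensor, had 73.8, 66.5 and 58.4 against 35.4, 32.9 and 37.2 CPM. STING1, the adaptor of cytosolic DNA sensing, had 261, 277 and 274 against 160.4, 163 and 156 CPM. In HLA class I presentation 5 of 14 rose and 5 fell. B2M, the shared light chain, had 1137, 1115 and 1103 against 423, 402 and 404 CPM (1.45 ± 0.042), while the peptide transporter subunit TAP2 (-0.55) and the trimming enzyme ERAP2 (-0.74) fell. Of 12 class II genes only 4 were tested. HLA-DMA, a peptide exchanger, had 11.3, 11.1 and 11.4 against 2.49, 2.14 and 2.06 CPM.

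**Figure D4:**
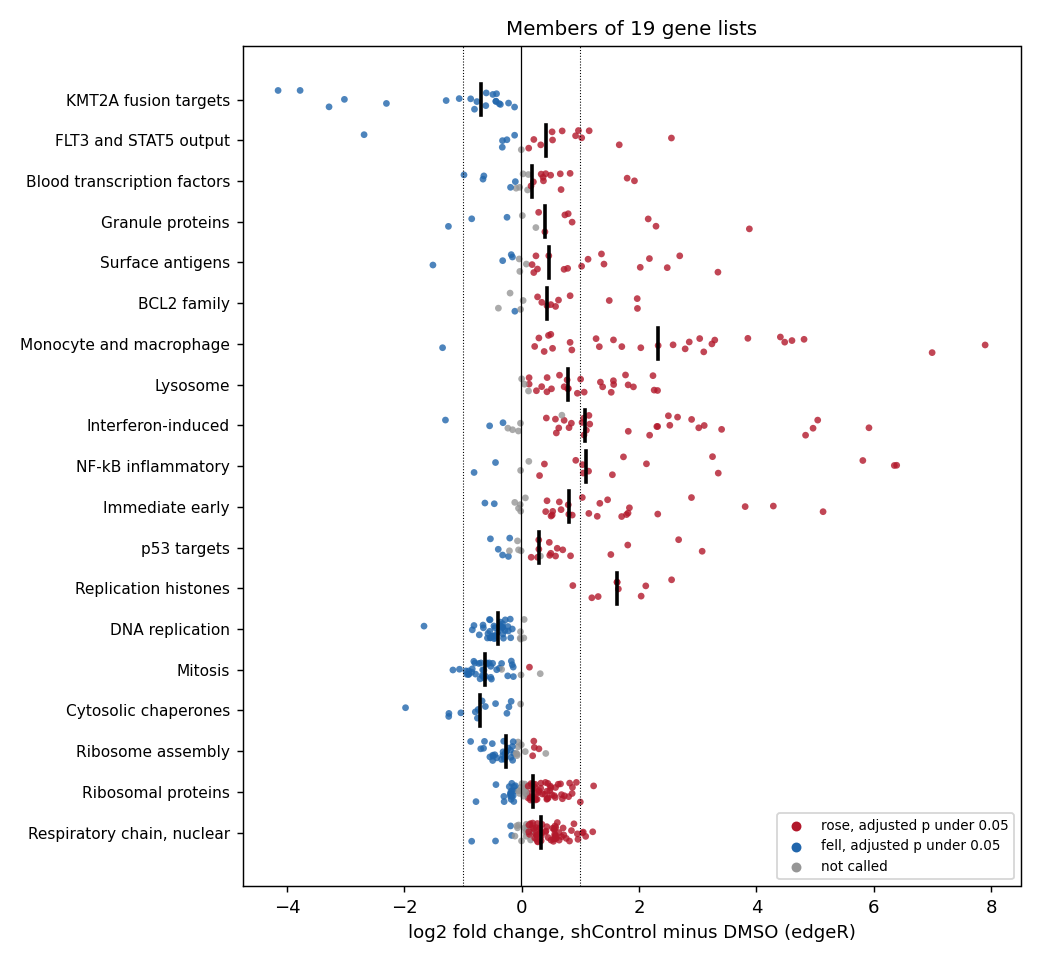
log2 fold change of each tested member of 19 gene lists, shControl minus DMSO (edgeR). Red points rose and blue points fell at an adjusted p under 0.05, gray points did not pass, thick bars are list medians, the thin line is the median of all genes and dotted lines mark 2-fold. KMT2A targets, mitosis genes and chaperones have medians of -0.69, -0.63 and -0.71, and monocyte genes have the median of 2.33.

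Inflammatory NF-kB targets included chemokines that were almost absent from DMSO cells. Of 18 tested, 14 rose, 11 of them at least 2-fold, and 2 fell. The filter was met only in shControl by 3 of them. CXCL8, the neutrophil chemokine, had 83.4, 77.1 and 78.1 CPM in shControl and 0.698, 0.947 and 1.18 in DMSO, an 83.9-fold rise. CCL3 had 14.5, 17.6 and 16.4 against 0.199, 0.299 and 0.343 CPM. CCL4, a related chemokine, had 16.6, 14.8 and 14.6 against 0.349, 0.0498 and 0.147 CPM. These chemokines stood at or near 1 CPM or below in every DMSO library. IL1B, a cytokine that needs cleavage to act, had 10.1, 10.97 and 9.77 against 1.05, 0.947 and 1.22 CPM. TNF was well expressed in both groups, at 312, 345 and 338 against 112, 118 and 111 CPM (1.55 ± 0.045).

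Immediate early genes followed, with 24 of 31 risen, 14 at least 2-fold, and 2 fallen, and 5 met the filter only in shControl. FOS, a subunit of AP-1, had 106, 108 and 111 CPM in shControl and 7.97, 8.02 and 7.20 in DMSO (3.81 ± 0.063). EGR2, a zinc finger factor, had 24.5, 23.3 and 25.2 against 1.40, 1.15 and 1.18 CPM. The groups lay an order of magnitude apart. EGR1, its paralog, had 60.9, 63.7 and 60.1 against 17.4, 17.5 and 17.6 CPM. IER3 (2.89) and JUND (1.14) rose as well. Among p53 targets 15 of 25 rose and 5 fell, 4 of them at least 2-fold higher. CDKN1A, the inhibitor of cyclin-dependent kinases, had 535, 564 and 550.3 against 191, 200.3 and 184 CPM (1.52 ± 0.042). The groups were far apart. BTG2, an antiproliferative factor, had 51.96, 55.05 and 56.5 against 6.43, 6.58 and 6.36 CPM. GDF15, a stress cytokine, had 16.3, 17.4 and 17 against 2.89, 2.84 and 2.20 CPM.

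Most tested genes of the cell cycle were lower in shControl, by less than 2-fold with 3 exceptions. In DNA replication 36 of 41 fell and none rose, with a median of -0.41, and in mitosis 36 of 40 fell and 1 rose, with a median of -0.63. MKI67, the proliferation antigen, had 439, 464 and 489 CPM in shControl and 1028, 1056 and 1052 in DMSO (-1.17 ± 0.044). UHRF1, which guides the copying of DNA methylation, had 198, 211 and 208 against 652, 669.5 and 634 CPM (-1.66 ± 0.042), the only replication gene past 2-fold. MCM2 (-0.81), of the replicative helicase, and CCNB1 (-0.93), the mitotic cyclin, fell by less than 2-fold. Counts of replication-dependent histones went the other way. Only 9 of 32 passed the low-count filter, 5 of them through shControl alone, so the 9 that rose are no count for the list. H2BC12, the most abundant, had 14.7, 13.96 and 16.4 CPM in shControl and 3.34, 3.99 and 3.08 in DMSO.

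Cytosolic chaperones were lower in shControl than in DMSO cells. Of 14 tested, 13 fell, 4 of them at least 2-fold, and none rose, with a median of -0.71 (-0.77 after the length and GC correction). HSP90AA1, the inducible HSP90, had 1195, 1149 and 1159 CPM in shControl and 2704, 2720 and 2855 in DMSO (-1.24 ± 0.045). HSPH1, a nucleotide exchange factor of HSP70, had 344, 327 and 328 against 773, 777 and 814 CPM. HSPA8, the constitutive HSP70, had 1941, 1937 and 1960 against 4062, 4064 and 3849 CPM. All of these lay below the DMSO range in every shControl library. HSPA1B, an inducible one with a near-identical copy, had 5.77, 5.64 and 5.31 against 22.8, 22.8 and 20.4 CPM. The heat shock element (GAA, any 2 bases, TTC, any 2 bases, GAA, on either strand), a motif added after these results were known, was present in 2 of 14 promoters of the list (14.3%) and in 0.487% of all promoters. The stretch shown is from HSPA8, with the reverse complement in capitals.
HSPA8, chr11:123062157-123062216, minus strand: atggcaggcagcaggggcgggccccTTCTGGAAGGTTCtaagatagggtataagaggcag

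Ribosome assembly factors fell in 27 of 39 cases and rose in 4, with a median of -0.26. NCL, nucleolin, had 1444, 1357 and 1483 CPM in shControl and 2269, 2129 and 2248 in DMSO (-0.63 ± 0.046). UTP20, of the small-subunit processome, had 123, 129.7 and 126 against 228, 227 and 238 CPM. Ribosomal protein genes themselves rose in 49 of 80 cases and fell in 18, with a median of 0.19. RPS29 (1.23) and RPL34 (0.999) rose, and RPL7A fell (-0.30 ± 0.045). Nuclear genes of the respiratory chain rose in 58 of 75 cases and fell in 4, with a median of 0.33. NDUFA4 had 208, 211 and 186 against 89.4, 101 and 93.2 CPM (1.09 ± 0.050), whereas COX7C, a small subunit of complex IV, fell, with 97.3, 102 and 105 against 180.5, 187 and 182 CPM (-0.85 ± 0.043).

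The fold change also varied with properties of the transcripts. Among genes of at least 5 CPM, the median log2 fold change went from 0.09 in the shortest of 5 equal bins by exon length to -0.17 in the longest, and from -0.10 in the bin of lowest GC content to 0.09 in the highest. The exon lengths of the ribosomal protein and respiratory lists were not set against these bins. By the same measure RPS6, for example, had 2696 bases and ATP5F1E, of the respiratory chain, 5081. After the correction for length and GC the median of the ribosomal proteins was 0.15 and that of the respiratory genes 0.30. Mitochondrial ribosomal RNA took 0.87 to 1.01% of the counts in shControl and 0.468 to 0.491% in DMSO. Messages of the mitochondrial genome took 5.27 to 6.71% and 5.44 to 5.71%, with 6 of 13 risen and 2 fallen. Their median of 0.11 turned to -0.15 after the correction. With 3 libraries a group the smallest two-sided exact permutation p is 0.1, so such shares cannot pass 0.05. The part of RNA selection or integrity in these differences was not tested.

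Other metabolic and stress lists showed mixed or small changes. ATF4 targets rose in 8 of 26 cases and fell in 15, cytosolic tRNA synthetases in 3 and 12 of 20, and endoplasmic reticulum chaperones in 4 and 12 of 20, with medians between -0.16 and -0.15. SLC7A11, the cystine importer, stood out among the ATF4 targets, at 145, 129 and 130.5 CPM in shControl and 36.8, 37.6 and 42 in DMSO (1.80 ± 0.054), while PHGDH, of serine synthesis, fell (-0.52 ± 0.041). Targets of hypoxia-inducible factors rose in 7 and fell in 6 of 16 cases, glycolysis genes in 10 and 8 of 21, cholesterol genes in 9 and 8 of 22, and fatty acid genes in 5 and 5 of 11. EBP, an isomerase of cholesterol synthesis, was nearly absent from DMSO cells, with 13.4, 13.96 and 13.5 CPM in shControl and 0.0997, 0.349 and 0.294 in DMSO. Clock genes rose in 4 and fell in 7 of 14 cases. NRF2 and iron genes rose in 11 and fell in 3 of 19, and FTH1, the ferritin heavy chain, had 444, 458 and 397 against 90.9, 106 and 96.9 CPM, where 63.2% of its exon length is shared with a gene on the other strand. HMOX1, the heme-degrading oxygenase, had 4.90, 5.18 and 4.81 against 0.449, 0.399 and 0.538 CPM, the largest change of the list (3.41). Alpha-arrestins and FOXO targets rose in 11 and fell in 6 of 18 cases, 2 of which met the filter only in shControl. TXNIP, an arrestin that follows glucose supply, had 376, 359 and 370.1 against 171, 165 and 164 CPM. Adhesion and cytoskeleton genes rose in 16 and fell in 10 of 28 cases, with 8 of at least 2-fold, among them S100A4 (1.23), S100A6 (1.56) and TMSB4X (1.37).

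Some genes were nearly off in 1 set of controls and on in the other. ARRDC4, an alpha-arrestin on chromosome 15, had 11.8, 12.2 and 10.3 CPM in shControl and 0.0498, 0 and 0.0490 in DMSO. Its 676 reads in shControl stood against 2 in DMSO, a ratio of 347 with a counting interval of 95.6 to 2870. SLC26A11, an anion transporter, had 37.3, 41.3 and 38 against 0.299, 0.199 and 0 CPM. It lies at chr17:80219699-80253500 (GRCh38), and the partly overlapping neighbor SGSH, a lysosomal sulfatase at chr17:80206716-80220923 that was chosen after its values were seen, had 3.68, 3.40 and 2.88 against 0, 0.0498 and 0 CPM. GNLY, granulysin, had 18.2, 18.7 and 19.7 CPM in shControl and 0.199, 0.150 and 0.0490 in DMSO, while the T cell receptor beta genes TRBC1 and TRBC2 were at 0. TRAC, of the alpha chain, had 22.7, 24.7 and 22.7 against 21.3, 21.5 and 20.02 CPM. CD3D, of the receptor complex, chosen after its values were seen, had 86 reads in shControl and 0 in DMSO, at least 29.4-fold higher against a floor of 3 counts over the group. BEX1, an X-linked gene of neurons and some leukemias, had 146, 161 and 160.2 against 2.09, 1.25 and 1.13 CPM. EEF1A2, the elongation factor of muscle and neurons, had 10.5, 9.75 and 9.46 against 0.0997, 0.199 and 0 CPM. SPOCD1 completed the 12 largest rises at 15.8, 14.1 and 14.98 against 0.249, 0.249 and 0.0979 CPM.

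The 12 largest falls were of genes with varied known roles. PTPRS, a receptor tyrosine phosphatase, had 0.664, 0.863 and 0.911 CPM in shControl and 24.1, 26.9 and 23.6 in DMSO, a fold change of -4.92 ± 0.13 on the log2 scale. NRIP1, a corepressor of nuclear receptors, had 0.766, 0.609 and 0.456 against 15.2, 15.7 and 15.7 CPM. RYR2, a calcium release channel, had 0.868, 0.812 and 1.16 against 23.9, 22.8 and 22.96 CPM. SYNPO2, an actin-binding protein, was the most abundant of the 12, at 28, 25.3 and 24.95 against 209, 215 and 208 CPM. STAMBPL1, LPCAT2, SH2D4A, ZNF426, EMC10, ABHD15, PIP4K2C and CACHD1 fell with log2 fold changes between -3.96 and -3.01. In every one of these genes the shControl libraries lay below the DMSO libraries. Among long noncoding genes the largest rise was that of ENSG00000266976, at 63.04, 64.3 and 67.2 against 0.449, 0.748 and 0.832 CPM, and the largest fall that of KDM4A-AS1, at 1.84, 1.62 and 2.08 against 12.1, 12.6 and 12.6 CPM, a gene that overlaps KDM4A over 11.0% of its exons. LINC00996 (3.39), ZMIZ1-AS1 (3.34) and ENSG00000236453 (3.54) also rose, and MIR600HG (-1.68), ENSG00000260947 (-1.51) and CYP4F26P (-2.002) fell. CYP4F26P shares 30.3% of its exon length with ANKRD18B on the same strand.

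**Figure D5:**
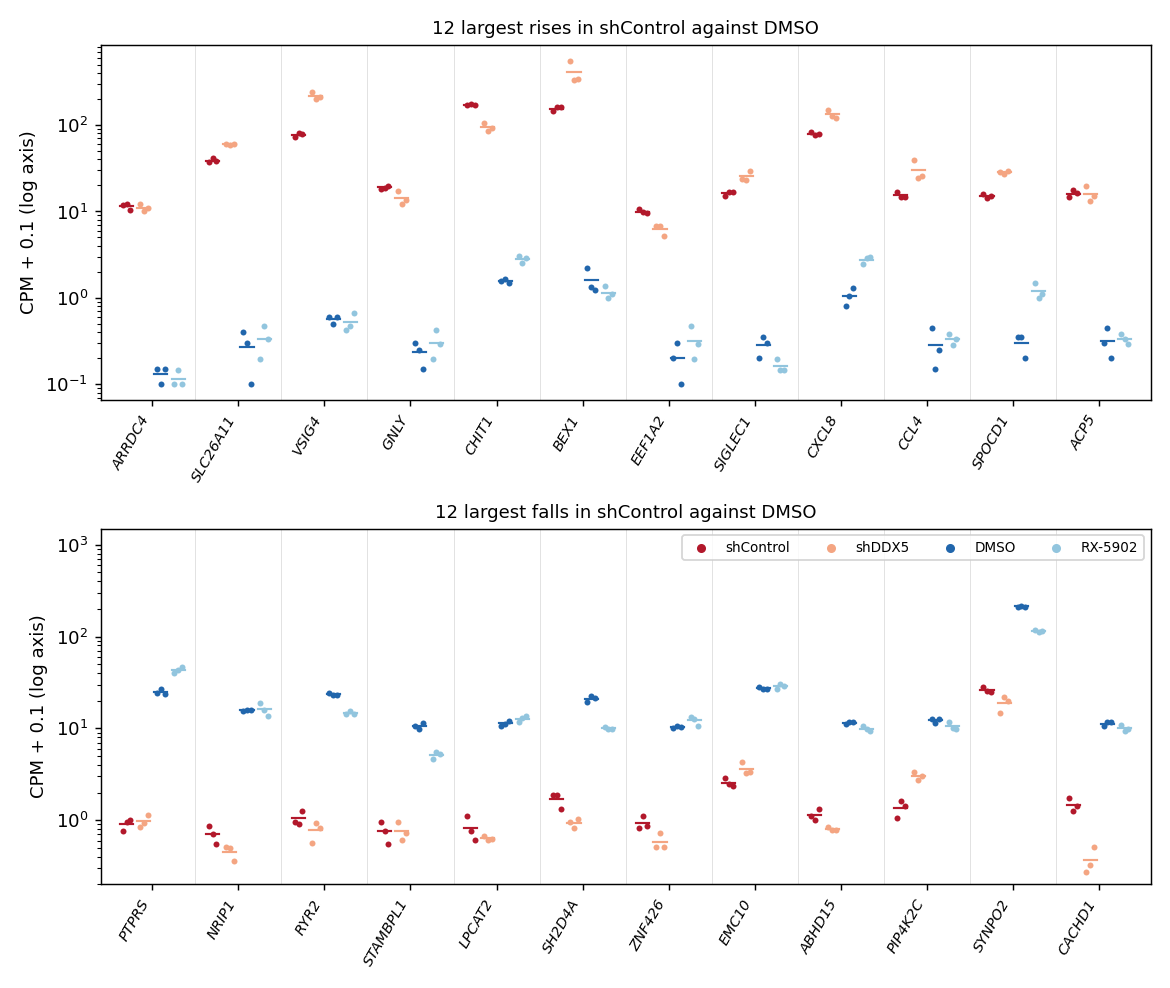
CPM + 0.1 (log axis) of the 12 largest rises (top) and the 12 largest falls (bottom) among protein-coding genes in shControl against DMSO, in all 12 libraries. Points are libraries, lines are group means, and colors are the 4 groups. For all 24 genes the shDDX5 libraries lie on the same side of the RX-5902 libraries as shControl lies of DMSO.

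The treated libraries, which did not enter the comparison, divided the same way between the experiments. For all 12 of the largest rises every shDDX5 library lay above every RX-5902 library, and for all 12 of the largest falls every one lay below. Of the 1746 genes at least 2-fold higher in shControl, 1409 (80.7%) were higher in shDDX5 than in RX-5902 without overlap and 102 were lower, beside 37.4% higher and 39.0% lower over all genes tested. Of the 586 genes at least 2-fold lower, 471 (80.4%) were lower in shDDX5 and 27 higher. All 21 interferon genes and all 13 lysosome genes past 2-fold, 18 of 20 monocyte genes, 13 of 14 immediate early genes and 7 of 7 KMT2A targets kept their side. Of the NF-kB targets past 2-fold, 8 of 11 did, and of the surface antigens 5 of 9. LYZ had 13992, 12467 and 12280 CPM in shDDX5 and 257, 258 and 245 in RX-5902, and SLC26A11 60.6, 59.5 and 60.9 and 0.0944, 0.375 and 0.237 CPM. The treated libraries share experiment, time and, in the knockdown, infection with their controls, and differ from them in the shRNA or the drug.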

How the data were processed

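RNA was taken with Trizol and RNeasy columns with DNase and made into libraries with the MGIEasy Fast RNA kit, per the labels' protocols. Reads were trimmed with Trim Galore 0.6.7, aligned with STAR 2.7.9a to GRCh38.p13 and counted with featureCounts 2.0.3, and Picard 2.8.0, R 4.4.2 and DESeq2 1.46.0 were also named, per the submitters' processing notes. The annotation release, the strand setting, the RNA selection and the handling of duplicates are not given in the sources used here. The authors deposited raw counts for 61906 genes, 1 table per experiment, with exon coordinates. Gene identifiers were matched to symbols with a reference table, 59984 of them with their version, 1819 without it and 103 not at all. Coordinates are the outermost exon ends of the deposited tables.

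The groups were compared with edgeR 4.0.16 (limma 3.58.1, R 4.3.3). The counts of the 6 libraries were filtered with filterByExpr, scaled by TMM and tested with the quasi-likelihood F test, with Benjamini-Hochberg adjustment over 14283 genes. CPM, counts per 1000000, is on the scale of these 6 libraries, or of all 12 where stated, and TPM used the union of exon lengths. Other steps used Python 3.11.15 with pandas 2.3.3, numpy 2.4.6, scipy 1.17.1 and matplotlib 3.10.9. The pipeline was tested on simulated data. Depth per library ran from 19557470 to 20312111 counts. Intervals on ratios of reads cover counting error only. Same-numbered libraries of the 2 groups deviated from their group means with correlations of -0.224, 0.0908 and -0.164, so the numbers did not pair them.

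The members and the 42 gene lists were chosen with earlier results of these data known. Named were 15 chosen genes, the top 20 by TPM, the 12 largest changes in each direction (4 for long noncoding genes) at a mean of at least 5 CPM without overlap, the 5 members of smallest p in each list with at least 3 calls, list members past 2-fold at 5 CPM, and, of identity lists, the 4 most abundant and the 3 with the narrowest interval around 0 at 50 CPM. Alternatives were DESeq2 1.42.0, other filters and scalings, a correction for length and GC, a replicate block, all 12 libraries in 1 fit, a test against a fold of 1.5, and leaving out each library. A few genes that met these rules are not reported here.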

Additional observations from a re-analysis of the deposited data

How the results depend on the processing

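The count of genes called, 10144 in the main setting, ranged from 9650 to 10049 when each library was left out in turn, and was 9238 with DESeq2, 10491 without a filter, 8472 in the fit of all 12 libraries and 10372 after the length and GC correction. With a replicate block 9939 genes were called, 5018 higher and 4921 lower. A mean of at least 5 CPM as filter left 864 genes past 2-fold, 670 higher and 194 lower, because fewer genes were tested. A test against a fold of 1.5 in place of 0 called 3045 genes, 2087 higher and 958 lower. DESeq2 placed 2743 genes past 2-fold and the fit with no filter 3345. Of the 2332 genes past 2-fold, 2206 were shared with DESeq2 and 2068 with the length and GC correction. Identity genes with a whole interval within 1.5-fold numbered 54 in the main setting, 49 with DESeq2 and 39 in the fit of all 12 libraries. Small differences of named genes changed sign under that correction, without and with the replicate block: BCL2 (0.0605, 0.0606), SPI1 (-0.1055, -0.1052), CEBPA (-0.1748, -0.1736), FLI1 (0.091, 0.0909), RNASE2 (-0.3186, -0.3174), ELANE (-0.1137, -0.1152), TFRC (0.1786, 0.1785), CD47 (0.0949, 0.0946) and TRAC (-0.1156, -0.1156). Of these CEBPA, RNASE2, TFRC, CD47 and FLI1 passed the test only with the correction. The cause was not tested. Leaving out mitochondrial and ribosomal RNA genes left no value for the mitochondrial messages. At the depth of these libraries, genes under 1 CPM rest on few reads.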
